A study of Mus musculus with 24 samples.

Results

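The 10 genes described here encode the KAT3 acetyltransferases, the KMT2 family of histone methyltransferases and 2 of their partners: Crebbp, Ep300, Kmt2a, Kmt2b, Kmt2c, Kmt2d, Setd1a, Setd1b, Ncoa6 and Paxip1. Accessibility at these genes was compared across the 4 genotypes of a mouse model in which 1 allele of Crebbp, of Kmt2d or of both is deleted in germinal center (GC) B cells. The comparison asks whether the paralogues and partners of the lost coactivators become more accessible, as would be looked for in compensation. Every ATAC-seq peak that overlapped a gene body or its 20 kb flanks was taken, which gave 77 of the 65483 peaks in the table, with between 4 peaks at Paxip1 and 11 at Kmt2a. The 10 genes were read against the 17156 protein-coding genes that had a peak in a window of the same kind. The rule that picks the peaks uses gene positions and no measured value, although the genes were chosen with earlier results of these data known.

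CREBBP and EP300 are the paralogous acetyltransferases that place acetyl groups on histones at enhancers and promoters, including lysine 27 of histone H3, and they are recruited by transcription factors such as CREB. The KMT2 proteins methylate lysine 4 of histone H3 within complexes called COMPASS: KMT2C and KMT2D act mainly at enhancers with the partners NCOA6 and PAXIP1, KMT2A and KMT2B act at the promoters of chosen genes, and SETD1A and SETD1B place most of the promoter trimethylation. CREBBP and KMT2D are among the genes most often mutated in lymphomas of GC B cells, usually on 1 allele.

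Open chromatin was profiled by ATAC-seq, which inserts sequencing adapters with a transposase where DNA is accessible, in GC B cells sorted from the spleen 10 days after immunization of young adult mice with sheep red blood cells (SRBC). All 17 mice carried 1 copy of Cγ1-cre, a Cre driven from the immunoglobulin γ1 constant region, so deletion starts in B cells that have begun to respond to antigen. WT mice (n = 4) carried Cγ1-cre alone, C mice (n = 4) also Crebbp fl/+, K mice (n = 4) Kmt2d fl/+, and CK mice (n = 5) both floxed alleles. Each deletion is thus heterozygous, and the other allele is intact in every mutant. The exons that Cre removes are not given in the sources used here, so a peak at Crebbp or Kmt2d does not check the genotype label.

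The authors deposited raw fragment counts per consensus peak on mm10 (GRCm38), and each of the 17 libraries had 17483706 to 21857738 fragments inside them. The main promoter peaks of the 10 genes, the largest peak within 500 bp of a protein-coding transcript start, held between 355 and 2282 fragments per library. All 8 GC B cell marker genes had a promoter peak in every library, and their summed signal ranged from 608 to 715 CPM (fragments scaled to a common normalized library size). Of 4 T cell markers, Cd3e, Cd4 and Cd8a had no promoter peak. Cd3d had one of 21.03 to 32.6 CPM. Of the 3 myeloid markers, Lyz2 and Itgam had none, and Csf1r had a small one of 1.11 to 1.51 CPM in WT and 1.65 to 2.27 CPM in C, which lay wholly above WT, while K (0.923 to 1.83) and CK (1.15 to 1.56) overlapped WT. The plasma cell markers (137 to 165 CPM) overlapped between all genotypes. The follicular or memory B cell markers ranged from 127 to 131 CPM in WT and, just above it, from 131 to 143 CPM in K, while C and CK overlapped WT, and their part in the results was not tested. The study describes female mice, but fragments on the Y chromosome were present in 9 of the 17 libraries, namely WT replicates 1 and 2, C replicates 1 and 2, K replicates 1, 3 and 4, and CK replicates 1 and 4. Results are therefore also given for the 8 libraries without them, where K is a single library whose spread is assumed to be that of the other groups.

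The starts of these genes lay in CpG-rich DNA. Windows of 200 bases before the starts of the targeted genes and of their closest paralogues are shown. The window at the start beside the single peak that passed the test is added. All were read from the GRCm38 sequence at GENCODE M21 starts, 5′ to 3′ on the strand of the gene. Capitals mark matches on either strand to any of 7 short motifs, which are spelled out after the sequences.
Crebbp, chr16:4213998-4214197, minus strand: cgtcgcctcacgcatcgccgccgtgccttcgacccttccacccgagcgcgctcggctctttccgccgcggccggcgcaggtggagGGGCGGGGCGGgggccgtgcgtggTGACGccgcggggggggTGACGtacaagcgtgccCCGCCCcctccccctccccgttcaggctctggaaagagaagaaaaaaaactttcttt
Ep300, chr15:81585151-81585350, plus strand: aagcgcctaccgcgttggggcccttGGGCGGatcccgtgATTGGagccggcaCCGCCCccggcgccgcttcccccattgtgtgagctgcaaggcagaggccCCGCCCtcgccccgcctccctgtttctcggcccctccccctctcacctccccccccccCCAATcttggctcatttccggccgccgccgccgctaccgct
Kmt2d, chr15:98871205-98871404, minus strand: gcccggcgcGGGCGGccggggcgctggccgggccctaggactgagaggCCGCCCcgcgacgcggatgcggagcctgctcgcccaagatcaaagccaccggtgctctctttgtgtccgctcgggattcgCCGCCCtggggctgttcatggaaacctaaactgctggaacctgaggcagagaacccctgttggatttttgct
Kmt2c, chr5:25498784-25498983, minus strand: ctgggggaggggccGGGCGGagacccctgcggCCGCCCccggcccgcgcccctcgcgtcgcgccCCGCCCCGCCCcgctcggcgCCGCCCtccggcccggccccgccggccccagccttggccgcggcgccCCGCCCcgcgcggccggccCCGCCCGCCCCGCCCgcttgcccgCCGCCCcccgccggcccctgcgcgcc
Zbtb32, chr7:30592943-30593142, minus strand: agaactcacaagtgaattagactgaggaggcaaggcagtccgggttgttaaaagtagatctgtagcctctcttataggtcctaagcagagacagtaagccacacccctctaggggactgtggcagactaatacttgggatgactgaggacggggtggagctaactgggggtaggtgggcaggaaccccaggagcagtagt

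A GC box (GGGCGG) stood in the window of 8 of the 10 genes, all but Setd1b and Paxip1, and in 37.5% of the 21938 protein-coding genes whose window was read. The Kmt2c window held 10 matches to it and 39 CpG dinucleotides, more CpGs than 99.7% of genes, and its GC content was 92.5%. Crebbp had 27 CpGs and 2 copies of the CRE half-site (TGACG), the core letters read by CREB. That half-site stood in 2 of the 10 windows, Crebbp and Paxip1, and in 17.2% of all. Ep300 was the only one of the 10 with a CCAAT box, which 31.7% of all genes held. Ncoa6 alone had an E-box, spelled CACGTG and found in 5.65% of genes. Paxip1 alone had an NRF1 half-site, written GCGCATG and found in 3.79% of genes. The ETS core, CCGGAAG, stood in 7.41% of all windows and in none of the 10. The same was true of the octamer, ATGCAAA, at 2.96% of all windows. All 10 windows lay inside the main promoter peak of their gene. The Zbtb32 window had 2 CpGs and none of the 7 motifs. These matches describe letters and not bound factors.

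In WT cells the promoter of Ep300 was the most accessible per length of the 10, with 39.0 ± 2.18 CPM per kb of peak (SD, n = 4), above 78.7% of 12089 main promoters. Its paralogue Crebbp stood at 17.3 ± 0.768 CPM per kb. Among the enhancer methyltransferases, Kmt2c had 22.5 ± 1.96 CPM per kb and Kmt2d 13.6 ± 0.761. Kmt2b (34.7 ± 0.983) followed Ep300, then Setd1a (26.3 ± 2.34) and Kmt2a (25.3 ± 0.591), whose values lay within 1 SD of Setd1a, then Paxip1 (23.4 ± 1.39) and Kmt2c, also within their spread. Setd1b reached 19.6 ± 1.28 CPM per kb, and Ncoa6 was the lowest at 10.5 ± 0.565. Both targeted genes thus ranked in the lower part of the list, and each had a more accessible paralogue.

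No promoter and no locus of the 10 genes passed the test in any mutant genotype. Counts were tested with edgeR's quasi-likelihood test, fitted to all 17 libraries and all peaks, and a peak was called at a Benjamini-Hochberg adjusted p under 0.01. The 10 main promoters gave 0 calls in C, where 0.120% of all 13351 promoter peaks were called, 0 in K (2.04%) and 0 in CK (10.7%). At an unadjusted p under 0.05, 0, 2 and 3 of the 10 passed in C, K and CK. Over all peaks, 8.90%, 20.6% and 28.9% did, and no share over promoter peaks alone was counted. With DESeq2 the count of calls at the adjusted p was 0 in each as well. The locus sums, which add the peaks over a gene body and its 20 kb flanks, gave 0 calls in C (0.332% of genes), 0 in K (2.95%) and 0 in CK (11.8%). A sum is not a value of the named gene alone, since 13 of the 77 peaks are promoters of neighbouring genes. These make up 4 of the 7 peaks at Kmt2b and 2 of the 8 at Kmt2d. Below an unadjusted p of 0.05 there were 0, 2 and 4 loci, and no share over all genes was counted. A test of any difference among the 4 genotypes called 0 of 10 loci, against 10.8% of genes. The lowest adjusted p in that test was 0.0272, at Ncoa6, and DESeq2 called 1 locus in it and 0 in C, K and CK.

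The intervals limit what could have been missed. At the main promoters the 95% interval reached at most 0.21 on the log2 scale to either side of the estimate in C and in K and 0.20 in CK. No interval of a main promoter or locus in any mutant contained a change of 1.5-fold. At an inner promoter of Setd1b with few fragments, the CK interval ran from 0.18 to 0.84, which contains 1.5-fold. At the Kmt2c promoter the interval in C ran from -0.17 to 0.09 and at Ep300 from -0.20 to 0.03. A missed threshold does not show that accessibility was equal.

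**Figure D1:**
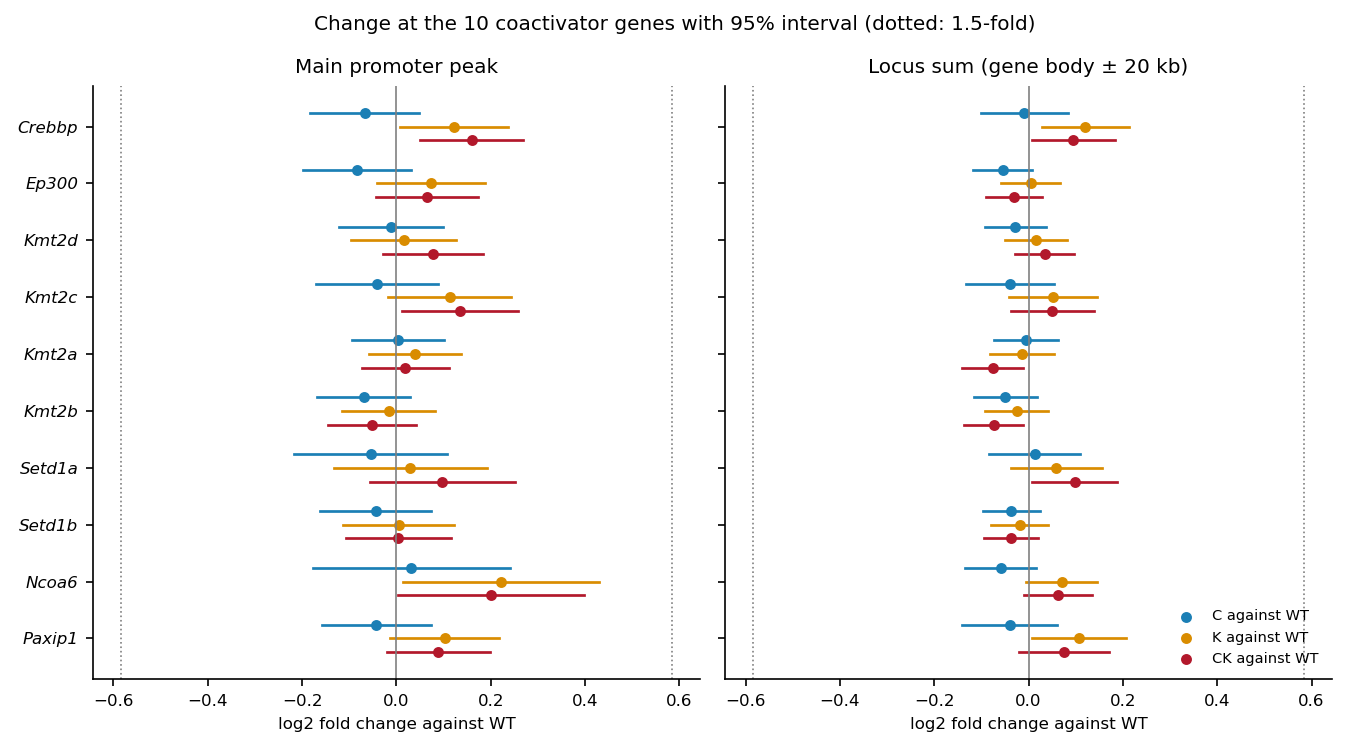
Log2 fold change against WT (x axis) at the main promoter peak (left) and the locus sum (right) of each gene for C, K and CK, with 95% intervals from edgeR and dotted lines at 1.5-fold. All intervals lie inside the dotted lines, and the Crebbp promoter in CK is at 0.16.

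Crebbp, the KAT3 gene that is deleted on 1 allele in C and CK, had the promoter with the lowest p among the 10 main promoters in CK. Its promoter peak (chr16:4212285-4214619) read 40.4, 42.7, 38.3 and 40.3 CPM in the WT mice and 40.6, 39.5, 37.7 and 36.4 in the C mice. The K mice read 46.9, 47.1, 41.4 and 40.8 CPM, and the CK mice 46.4, 44.4, 43.2, 46.7 and 45.2. All 5 CK mice lay above the highest WT mouse, C overlapped WT, and K split into 2 high and 2 that overlapped WT. The log2 fold change in CK was 0.16 (SE 0.053, 95% interval 0.05 to 0.27, edgeR adjusted p = 0.0414), which misses the threshold. Against C the CK value was higher by 0.23 on the log2 scale (SE 0.053, adjusted p = 0.0118), also a miss. In K it was 0.12 (adjusted p = 0.210) and in C -0.07 (adjusted p = 0.786). The 4 peaks inside the Crebbp gene body had no common direction, with 2 of 4 below 0 in CK.

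Ep300, the paralogue of Crebbp, gave no sign past the test of an opposite change. Its promoter (chr15:81584685-81586788) read 85.4, 86.3, 76.7 and 79.8 CPM in WT and 77.2, 79.0, 77.5 and 75.8 in C. In K it read 96.0, 90.4, 82.2 and 76.96, and in CK 91.6, 84.3, 82.0, 86.9 and 84.3. All 3 mutants overlapped WT. The log2 fold changes were -0.08 (SE 0.056, adjusted p = 0.7102) in C, 0.07 (adjusted p = 0.494) in K and 0.06 (SE 0.053, adjusted p = 0.456) in CK. A peak upstream of Ep300 (chr15:81576585-81578490) went the other way. It read 34.0, 36.9, 38.8 and 41.9 CPM in WT and 31.3, 30.3, 30.6, 32.8 and 35.0 in CK, where only replicate 5 lay inside the WT range. Its log2 fold change in CK was -0.25 (SE 0.072, adjusted p = 0.0217), a miss at 0.01.

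**Figure D2:**
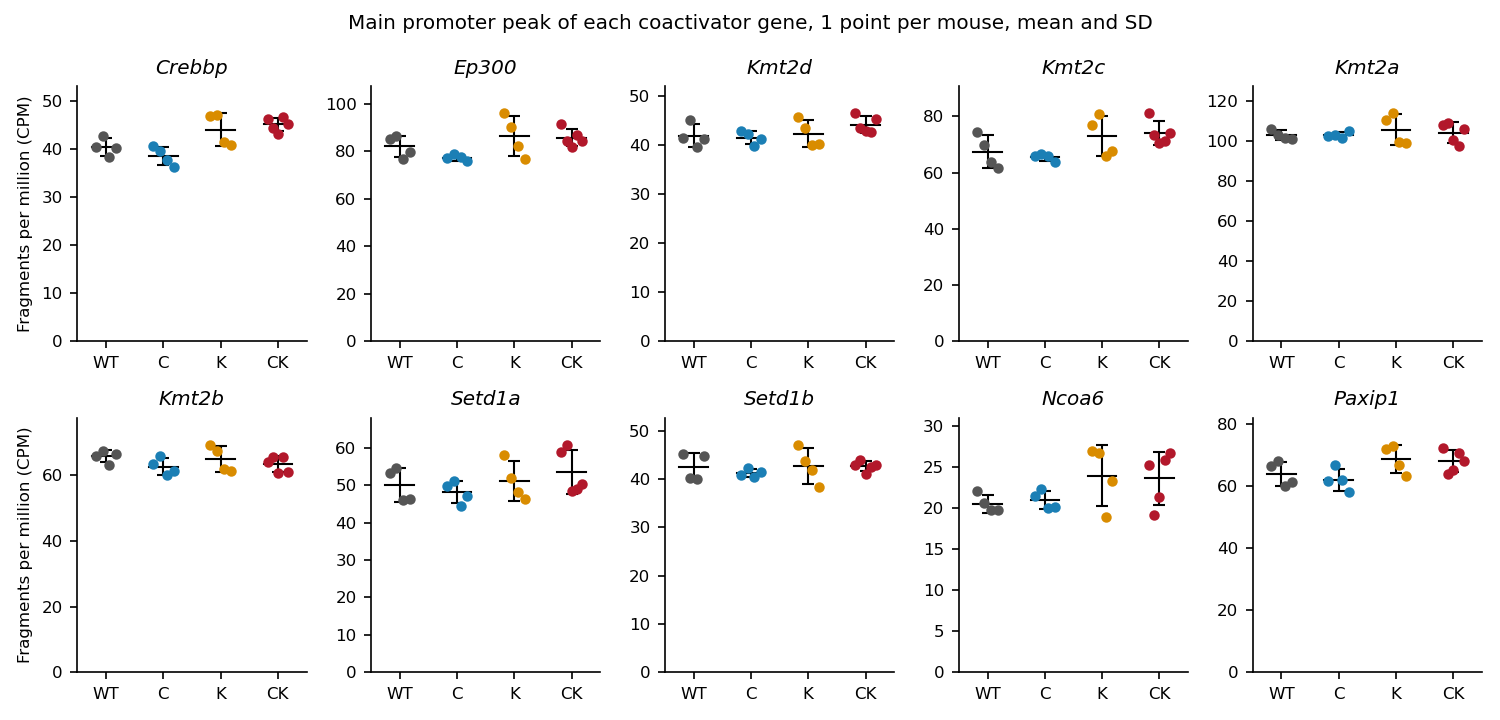
Accessibility in CPM (y axis, from 0) at the main promoter peak of each of the 10 genes in WT, C, K and CK, with 1 point per mouse, and the mean and SD of each genotype as bars. Crebbp in CK (43.2 to 46.7 CPM) is the only group that lies wholly above WT (38.3 to 42.7 CPM).

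Kmt2d, the methyltransferase deleted on 1 allele in K and CK, kept overlapping promoter values in all genotypes. The promoter (chr15:98869524-98872598) averaged 41.9 CPM in WT (SD 2.34, n = 4) and 41.6 CPM in C (SD 1.33, n = 4). The K average was 42.4 CPM (SD 2.80, n = 4), and that of CK was 44.2 CPM (SD 1.69, n = 5). Its log2 fold change was 0.02 (SE 0.054, adjusted p = 0.910) in K and 0.08 (SE 0.051, adjusted p = 0.338) in CK. The peak of the Kmt2d window with the lowest p in CK lay downstream (chr15:98823342-98824340), at -0.43 (adjusted p = 0.167).

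Kmt2c, its closest paralogue, read 74.5, 69.8, 63.8 and 61.5 CPM at the promoter (chr5:25497306-25500299) in WT and 65.8, 66.7, 65.8 and 63.6 in C. The K mice read 77.1, 80.9, 65.9 and 67.9 CPM and the CK mice 81.1, 73.2, 70.7, 71.1 and 74.0. WT itself spanned 61.5 to 74.5, so 4 of the 5 CK mice fell inside its range. The log2 fold change was 0.11 (SE 0.063, adjusted p = 0.322) in K and 0.14 (SE 0.060, adjusted p = 0.131) in CK. A peak over an exon of Kmt2c (chr5:25302243-25303218), with few fragments, moved the other way. It read 5.05, 8.20, 7.83 and 9.41 CPM in WT and 4.04, 3.39, 4.35, 6.97 and 6.86 in CK. The log2 fold change was -0.58 (SE 0.181, adjusted p = 0.0315). WT replicate 1 lay apart at 5.05, and without it the change was -0.73 with an adjusted p of 0.00680.

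Kmt2a and Kmt2b, the promoter methyltransferases known as MLL1 and MLL2, had promoters close to WT. At Kmt2a (chr9:44879180-44883254) the log2 fold changes were 0.0035 in C, 0.04 in K and 0.02 in CK, and at Kmt2b (chr7:30587928-30589818) -0.07, -0.02 and -0.05. Inside Kmt2a, 7 of 8 exon and intron peaks had values below 0 in K and the same number in CK, with a median of -0.15 in CK. Over all peaks outside promoters, 44.3% in K and 45.5% in CK lay above 0. None of the 8 Kmt2a peaks passed the test in CK. Their lowest adjusted p was 0.0780, at an exon peak (chr9:44817494-44820442) with a log2 fold change of -0.44. The 5 CK mice were lower than every WT mouse at that peak, at another exon peak (chr9:44840714-44841982, adjusted p = 0.122) and at an intron peak (chr9:44866536-44869344, adjusted p = 0.0857). At the first of these the gap was small, with 2.49 CPM in both the lowest WT mouse and the highest CK mouse at 3 digits. In the whole table the CK mice lay wholly below WT at 6.39% of peaks. The Kmt2a peaks without overlap were chosen after their values were seen. The Kmt2a locus sum averaged 252 CPM in WT (SD 7.16, n = 4) and 239 CPM in CK (SD 7.69, n = 5), a log2 fold change of -0.08 (adjusted p = 0.0789).

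The single peak that passed the test lay in the window of Kmt2b but not at its promoter. The center of this peak (chr7:30592951-30594867) is 5183 bp upstream of the nearest Kmt2b transcript start. Its nearer edge is 9 bp from a transcript start of Zbtb32, a zinc finger repressor expressed in activated lymphocytes. The peak read 67.7, 70.3, 70.1 and 71.6 CPM in WT and 64.9, 68.1, 69.3 and 69.8 in C. The K mice read 66.5, 64.5, 66.3 and 61.5 CPM, and the CK mice 57.01, 60.0, 62.2, 64.7 and 59.1. Both K and CK lay wholly below WT, and C overlapped it. In CK it fell by 0.21 on the log2 scale (SE 0.043, adjusted p = 0.00201). The C value was -0.04 and the K value -0.11 (adjusted p = 0.149). It was also the 1 peak of 77 called in the test of any genotype (adjusted p = 0.00683), against 5.62% of all peaks. That call was lost with GC content bins, in the libraries without Y fragments, and without any one of WT replicates 2, 3 and 4, C replicate 4 and CK replicates 1, 2 and 5. The CK call was lost with GC content bins (-0.15, adjusted p = 0.0122), in the 8 libraries without Y fragments (-0.22, adjusted p = 0.0282) and without WT replicate 4 (-0.20, adjusted p = 0.0106), and the change was smaller than 1.5-fold.

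**Figure D3:**
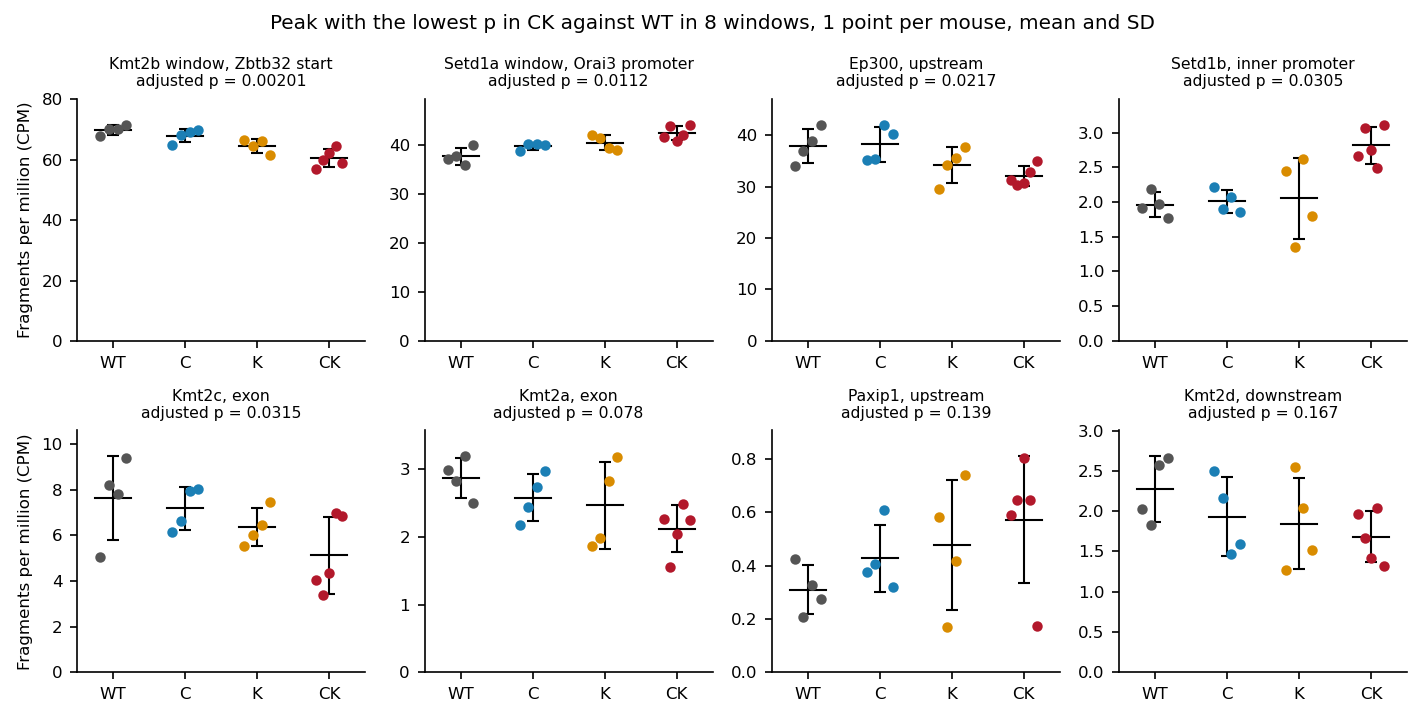
Accessibility in CPM (y axis, from 0) in WT, C, K and CK at the peak with the lowest p in CK against WT in each of 8 windows, with 1 point per mouse and the mean and SD as bars. The peak at the Zbtb32 start in the Kmt2b window (adjusted p = 0.00201) has 57.01 to 64.7 CPM in CK and 67.7 to 71.6 in WT.

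Setd1a and Setd1b, which place most of the trimethylation at promoters, showed no call. The main promoter of Setd1a (chr7:127776249-127778148) averaged 50.02 CPM in WT (SD 4.44, n = 4) and 53.5 CPM in CK (SD 5.83, n = 5), a log2 fold change of 0.10 (adjusted p = 0.420). The peak of its window that came closest to the threshold stood at the promoter of a neighbour, Orai3, a calcium channel gene (chr7:127768679-127770649). It read 37.1, 37.6, 35.8 and 39.9 CPM in WT and 41.5, 43.8, 40.8, 42.0 and 44.0 in CK, without overlap. The log2 fold change was 0.18 (SE 0.046, adjusted p = 0.0112). Leaving out WT replicate 4 gave 0.20 with an adjusted p of 0.00996, and DESeq2 gave 0.17 with 0.00936. It also passed with total counts (0.18, adjusted p = 0.00488) and loess offsets (0.17, adjusted p = 0.00583). It stayed a miss in 16 of the 17 fits that left out 1 library, with adjusted p up to 0.0498. With GC content bins and with the replicate block it was a miss as well. Setd1b had a main promoter (chr5:123141024-123143191) at 0.0046 in K and 0.0040 in CK. It also had an inner promoter with few fragments (chr5:123162892-123163416), which read 1.92, 2.19, 1.97 and 1.77 CPM in WT and 2.66, 3.07, 2.75, 2.49 and 3.11 in CK. All CK mice lay above all WT mice there, but the log2 fold change of 0.51 (SE 0.160) had an adjusted p of 0.0305.

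Ncoa6 and Paxip1, the partners of KMT2C and KMT2D, gave no call either. The Ncoa6 promoter (chr2:155472478-155474430), which had the fewest fragments of the 10, read 22.1, 20.6, 19.8 and 19.7 CPM in WT and 21.5, 22.3, 19.97 and 20.1 in C. It read 26.9, 26.7, 18.9 and 23.3 CPM in K and 25.2, 19.1, 21.3, 25.8 and 26.7 in CK. Of these, 3 of 4 K mice and 3 of 5 CK mice lay above all WT mice, and 1 of each lay below all of them. The log2 fold change was 0.22 (SE 0.101, adjusted p = 0.211) in K and 0.20 (SE 0.096, adjusted p = 0.166) in CK. The Paxip1 promoter (chr5:27790309-27793046) had log2 fold changes of -0.04 in C, 0.10 (adjusted p = 0.309) in K and 0.09 (adjusted p = 0.281) in CK. The peak of its window with the lowest p in CK lay upstream (chr5:27804526-27804931) and held under 1 CPM in every library, with a log2 fold change of 0.89 (SE 0.402, adjusted p = 0.139).

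The largest locus value in any mutant was 0.12, and the largest promoter value 0.22. In K the Crebbp locus had the largest value of the 10, 0.12 (SE 0.045, adjusted p = 0.0869), followed by Paxip1 with 0.11 (adjusted p = 0.162). In CK, Setd1a stood at 0.10 (adjusted p = 0.11), Crebbp at 0.09 (SE 0.042, adjusted p = 0.109), Paxip1 at 0.075 (adjusted p = 0.252), Ncoa6 at 0.06 (adjusted p = 0.197) and Kmt2c at 0.05 (adjusted p = 0.420). The Kmt2d locus stood at 0.03 in CK (adjusted p = 0.434) and 0.015 in K, with Ep300 at -0.03 and Setd1b at -0.04 in CK. The Kmt2b locus, which includes the peak at Zbtb32, stood at -0.07 (SE 0.031, adjusted p = 0.0817). In C, 9 of the 10 loci had values below 0, of which the lowest was -0.06 at Ncoa6 (adjusted p = 0.641), and several of these signs changed with the scaling.

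Over all 77 peaks, 0 were called in C (0.160% of all peaks), 0 in K (1.48%) and 1 in CK (6.84%), and that 1 fell. At an unadjusted p under 0.05 the windows held 0 peaks in C (8.90% of all peaks), 9 in K (20.6%) and 19 in CK (28.9%). CK against C gave 0 calls (1.68% of all peaks), as did CK against K (0.00916%) and K against C (0.788%), with 16, 5 and 11 peaks at an unadjusted p under 0.05. A test of whether the CK change departs from both single changes added together also gave 0 calls (0.0107%) and 1 such peak. For these tests no share over all peaks was counted at the unadjusted p. With DESeq2 the counts of calls were 2 in CK, 3 for CK against C and 0 for the other pairs. Over all peaks DESeq2 called 5274 in CK and 2104 for CK against C. In the 8 libraries without Y fragments the count in CK was 0.

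At 1 peak the C mice and at 5 peaks the K mice lay wholly to one side of the WT mice, against 5.66% and 11.3% of all peaks. The CK mice lay wholly above WT at 4 peaks (6.59% of all peaks) and wholly below at 5 (6.39%). Read against the whole table, none of these counts of members stands clearly above the background. By position, 10 of the 11 promoter peaks had values above 0 in CK and 1 of the 8 exon peaks did, while 70.5% of all promoter peaks lay above 0. Peaks inside the gene bodies were below 0 at 20 of 27 in K and at 20 of 27 in CK, and at 13 of 27 in C. In the whole table, 45.5% of peaks outside promoters lay above 0 in CK, with a median of -0.028, and 44.3% in K and 51.7% in C.

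**Figure D4:**
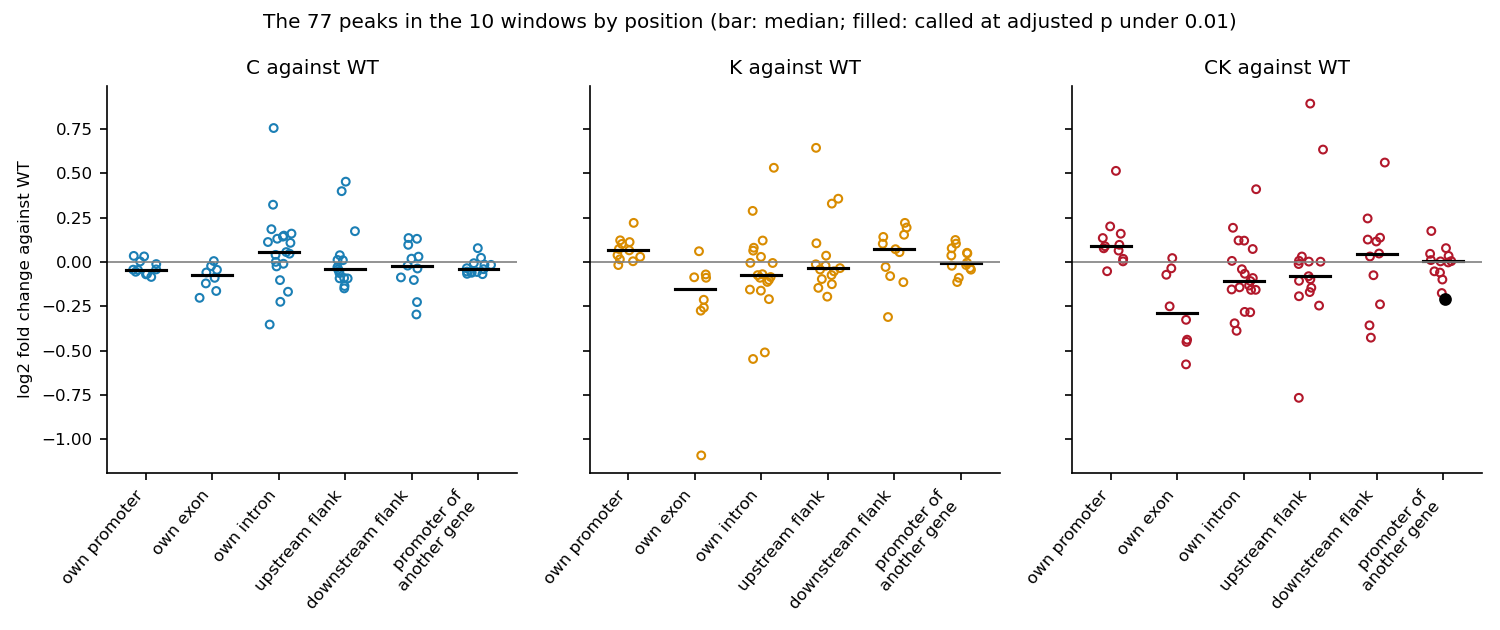
Log2 fold change against WT (y axis) of each of the 77 peaks in C, K and CK, by position relative to the gene, with the median of each class as a bar and the called peak filled. In CK the promoter peaks sit mostly above 0 (median 0.089) and the exon peaks mostly below (median -0.29).

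Against WT, the medians of the 10 promoters had the same signs as those of promoters in general. The main promoters were above 0 for 2 of 10 genes in C, 9 in K and 9 in CK, with medians of -0.043, 0.056 and 0.083. Over all promoter peaks the medians were -0.014, 0.061 and 0.062. Against C, all 10 main promoters were above 0 in K and in CK, and 0 were called. Their medians were 0.11 in K and 0.14 in CK, while those of all promoter peaks were 0.068 and 0.070. The cause of this gap was not tested. The share of fragments that fell in promoter peaks ranged from 53.5% to 55.5% in WT, 53.6% to 55.1% in C, 54.9% to 57.7% in K and 55.6% to 57.2% in CK, so every CK library lay above every WT library. The K libraries with the highest shares, replicates 1 (57.7%) and 2 (57.1%), also had the highest values in K at each of the 10 main promoters. The part of this share in the promoter values was not tested. When counts were scaled within 20 bins of peak GC content, the number above 0 became 4 in C, 4 in K and 6 in CK, with medians of -0.0052, -0.018 and 0.0066. The background medians of that fit were 0.026 in C, 0.023 in K and 0.037 in CK, above those of the 10 promoters in each genotype. Under that scaling Crebbp in CK stood at 0.064 (adjusted p = 0.322), and the Kmt2b promoter, the lowest of the 10 under both scalings, moved from -0.05 to -0.15 (adjusted p = 0.0169). Kmt2c moved from 0.11 to 0.030 in K and from 0.14 to 0.040 in CK, and Ncoa6 in CK moved from 0.20 to 0.10.

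The locus profile of Crebbp varied more over the libraries than that of Kmt2d. Over the 17 libraries the log2 CPM of the Crebbp locus had a root mean square distance of 0.081 from its own mean, and the Kmt2d locus 0.042. The loci most like Crebbp by that measure, among genes that share no peak with its window, were Flywch2, Phf12 and Ss18l2, at distances of 0.027 to 0.029. Those most like Kmt2d were Atp5j2, Irak4 and Gpi1, at 0.019 each. The measure separated few genes, since 42.9% of genes lay no farther from Crebbp than its own mean did, and 11.2% from Kmt2d.

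Among 28 partner and related genes on a list that covers COMPASS subunits, other acetyltransferases, p160 coactivators and factors that recruit KAT3 proteins, 3 were called in CK and all rose. By measure, 2 of the 28 promoters and 2 of the 28 loci were called, against 10.7% of all promoter peaks and 11.8% of all loci, so the list did not stand above the background. None was called in C or K, at the promoter or at the locus. The median log2 fold change of the 28 promoters in CK was 0.05 and that of their loci 0.02. Men1 encodes menin, a subunit that KMT2A and KMT2B complexes need at their target promoters. Its locus sum rose by 0.19 in CK (SE 0.034, adjusted p = 0.000334), and its promoter from 28.3 ± 1.34 CPM in WT (SD, n = 4) to 33.7 ± 3.49 in CK (SD, n = 5), a log2 fold change of 0.25 (SE 0.063, adjusted p = 0.00812). In C the promoter stood at 31.6 ± 0.484 CPM (SD, n = 4, adjusted p = 0.474) and in K at 32.6 ± 1.27 CPM (SD, n = 4, adjusted p = 0.0739). Ash2l encodes a core subunit of every COMPASS complex. Its locus rose by 0.23 (SE 0.052, adjusted p = 0.00250), and its promoter value of 0.21 had an adjusted p of 0.0110. The promoter of Ncoa1, a p160 coactivator that binds CREBBP and EP300, rose from 40.4 ± 2.86 CPM (SD, n = 4) to 48.6 ± 4.68 (SD, n = 5), by 0.27 on the log2 scale (SE 0.065, adjusted p = 0.00658), while its locus sum stood at -0.04.

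These promoter calls were less stable than the locus calls. Men1's promoter kept its call when K replicate 3, K replicate 4, CK replicate 4 or CK replicate 5 was left out and lost it without any of the other 13 libraries. Ncoa1's was lost without 6 of the 17, namely WT replicates 1, 3 and 4 and CK replicates 1, 4 and 5. Both were lost with GC content bins, where Men1 stood at 0.18 (adjusted p = 0.0579) and Ncoa1 at 0.17 (adjusted p = 0.0333). They were also lost when only WT and CK were fitted (adjusted p = 0.0263 for Men1 and 0.0143 for Ncoa1), in the 8 libraries without Y fragments (0.0428 and 0.0916) and under the 1.5-fold limit. The Ash2l locus was lost without WT replicate 3 (0.22, adjusted p = 0.0129) or WT replicate 4 (0.21, adjusted p = 0.0155), and under the 1.5-fold limit. The Men1 locus was lost only in the 8 libraries without Y fragments (0.19, adjusted p = 0.0171) and under the 1.5-fold limit.

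**Figure D5:**
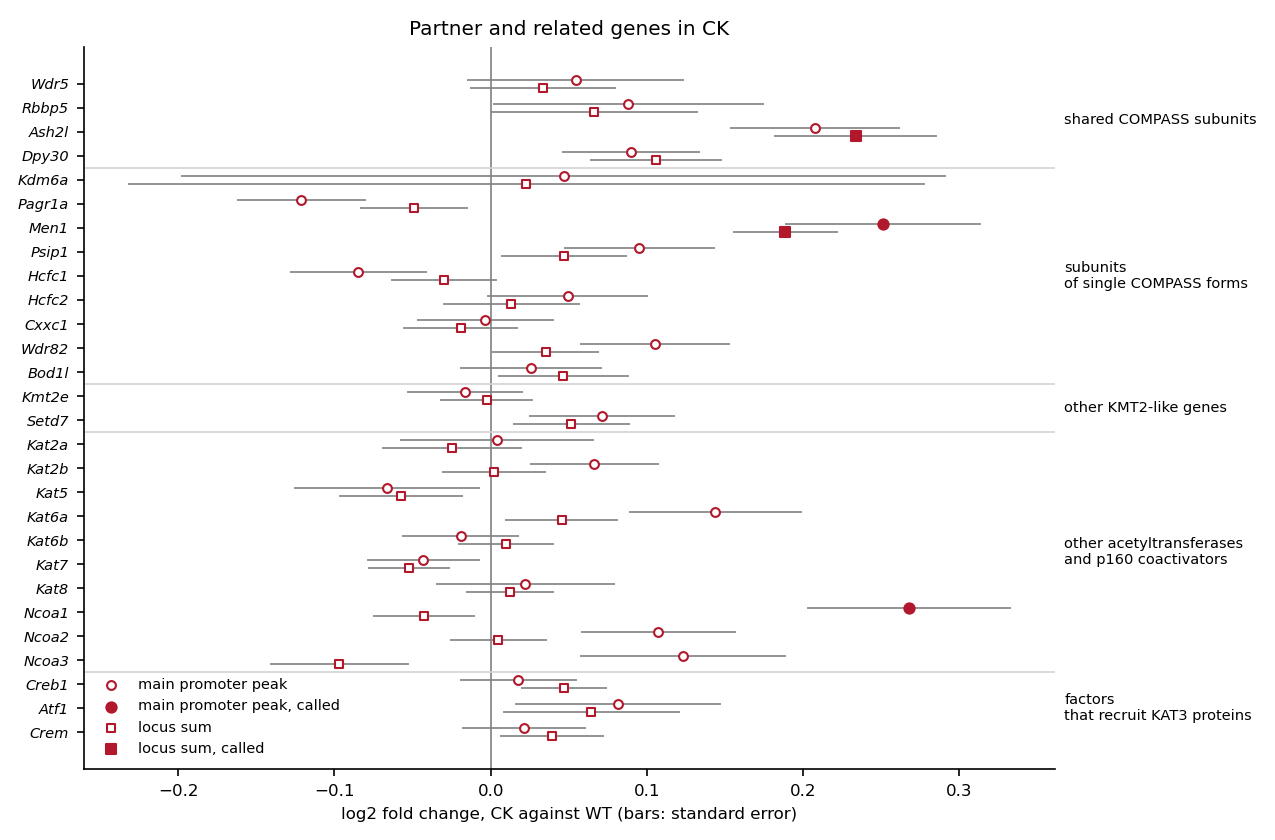
Log2 fold change in CK against WT (x axis, bars show the standard error) at the main promoter peak (circles) and locus sum (squares) of 28 partner and related genes by group, with called values filled. The Men1 promoter and locus, the Ash2l locus and the Ncoa1 promoter are filled and lie between 0.19 and 0.27.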

How the data were processed

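ATAC-seq libraries of sorted GC B cells from 17 mice were analysed. The authors aligned the reads to mm10, called consensus peaks with an nf-core pipeline and deposited raw fragment counts per peak from featureCounts 2.0.1 with a minimum overlap fraction of 0.2. These counts are not normalized, and libraries differ in depth, composition and share of promoter fragments. Sorted centroblast and centrocyte libraries of the series were not analysed here.

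Genotypes were taken from the labels. Counts were scaled by TMM and fitted with edgeR 4.0.16 in R 4.3.3 (quasi-likelihood, 1 coefficient per genotype, all 17 libraries), with Benjamini-Hochberg adjustment over 65483 peaks and a threshold of 0.01. All tests were two-sided. Counts of peaks in a gene body with 20 kb on each side were summed per gene and fitted in the same way over 17156 genes. CPM values use the TMM library sizes. Genes were placed on GENCODE M21 and sequences read from GRCm38. The script was tested on simulated data. The labels give separate samples, and the study describes littermates.

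The members and the partner list were chosen with earlier results of these data known. The text names all 10 members, each member peak past the threshold, for each member the peak with the lowest p in CK, the called partners and the 3 loci most like Crebbp and Kmt2d. The other peaks and the Kmt2a peaks that do not overlap WT were chosen after their values were seen.

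Alternatives were an adjusted p of 0.05, a 1.5-fold limit, DESeq2 1.42.0, total counts, DESeq2 size factors, loess offsets, GC content bins, a mean CPM of at least 1, the replicate number as a block, only the genotypes compared, Y signal as a covariate, only libraries without Y signal, windows of 5 and 50 kb, and leaving out each library in turn. Same-numbered libraries had correlated deviations in 12 of 24 pairs (r above 0.1, range -0.093 to 0.22). All 12 pairs also matched in whether they held Y fragments, and no same-numbered pair that differed in this passed 0.1. The part of Y signal in these correlations was not tested. Pairs with different numbers ranged from -0.24 to 0.27. The labels do not say what the numbers stand for, so the main fit left them out. Whether same-numbered mice were handled together was not tested, and the replicate block is given as an alternative.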

Additional observations from a re-analysis of the deposited data

Results flagged for a closer look

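Of 80 groups tested at the main promoters and loci of the 10 genes, 1 held a library far from the others by Dixon's criterion, which flags about 1 in 20 groups by chance. The Kmt2b locus sum in CK replicate 4 was 350.6 CPM, while the other 4 CK mice had 332 to 337 CPM. The called peak at the Zbtb32 start lies in this window, and CK replicate 4 was also the highest CK mouse there, at 64.7 CPM. The cause was not tested.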

How the results depend on the processing

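Over all alternatives, 414 counts of calls were within 1.5 times the reported count and 36 were not. At an adjusted p of 0.05 the peaks called were 7 in CK, 4 for CK against C, 1 for K against C and 4 for any genotype, with 1 promoter in CK and 1 locus for any genotype. The count in CK became 0 under the 1.5-fold limit, with GC content bins and in libraries without Y signal, and the latter pair of settings also gave 0 for any genotype. The CK count became 2 with DESeq2 (5274 of all peaks), total counts (4532), loess offsets (4828) and the 50 kb window, which holds 121 peaks. CK against C gave 3 peaks with DESeq2 (2104 of all peaks), 1 with loess offsets (1162), 1 with Y signal as a covariate (1915) and 2 with the 50 kb window. Any genotype gave 3 peaks (5562 of all peaks) and 1 locus with DESeq2, and 4 peaks with the 50 kb window. The replicate block, which rests on shared numbers only, gave 3 peaks in CK, 4 for CK against C and 5 for any genotype. Over all peaks it gave 6607, 2571 and 6212. The peaks added in CK were the upstream Ep300 peak (-0.28, adjusted p = 0.000919) and the Kmt2c exon peak (-0.70, adjusted p = 0.000628). The block also gave 1 locus for any genotype and changed no other count of calls by over 1.5 times. Leaving out 1 library gave 1 to 2 peaks in CK (2 without WT replicate 1) and 0 to 2 for any genotype (0 without WT replicates 2, 3 or 4, C replicate 4 or CK replicates 1, 2 or 5, and 2 without K replicates 3 or 4). The 50 kb window was run for peaks only.

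Signs that turned belonged to values that did not pass the test. With GC content bins, promoters in C turned at Kmt2c (0.0042) and Kmt2d (0.012), in K at Ep300 (-0.0097), Kmt2a (-0.027), Kmt2d (-0.049), Setd1a (-0.052) and Setd1b (-0.079), and in CK at Ep300 (-0.031), Kmt2a (-0.050) and Setd1b (-0.092), and loci turned in C at Crebbp (0.022), Kmt2a (0.019) and Kmt2c (0.0087) and in K at Ep300 (-0.011) and Kmt2d (-0.0021). With total counts, C turned at the Kmt2d promoter (0.016) and the Crebbp (0.019) and Kmt2a (0.022) loci. With loess offsets, the Kmt2d promoter in C (0.014), the Setd1b promoter in K (-0.0095), the loci in C of Crebbp (0.0037), Kmt2a (0.023), Kmt2d (0.0027) and Setd1b (0.0051), and the Ep300 locus in K (-0.0052) turned. In libraries without Y signal, the Kmt2c (0.050) and Kmt2d (0.0067) promoters and the Kmt2a locus (0.011) in C and the Kmt2b promoter (0.071) and locus (0.011) in K turned. With only the genotypes compared, the Setd1b promoter in K was -0.0022. With the 5 kb window, the loci of Kmt2a (0.0083) and Setd1a (-0.042) in C, Setd1b (0.058) in K, and Ep300 (0.046) and Setd1b (0.039) in CK turned.

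Leaving out 1 library moved promoters across 0 in C at Kmt2a (-0.0073 to 0.019), Kmt2c (-0.082 to 0.0098) and Kmt2d (-0.038 to 0.027), in K at Kmt2a (-0.00066 to 0.069), Kmt2b (-0.050 to 0.011), Kmt2d (-0.026 to 0.054), Setd1a (-0.040 to 0.076) and Setd1b (-0.047 to 0.056), and in CK at Setd1b (-0.025 to 0.033). Loci crossed 0 in C at Crebbp (-0.046 to 0.019), Kmt2a (-0.028 to 0.012) and Setd1a (-0.011 to 0.037), and in K at Ep300 (-0.0098 to 0.018), Kmt2a (-0.029 to 0.0039) and Kmt2d (-0.0026 to 0.028). The causes were not tested. Depth limits the peaks with few fragments, such as the upstream Paxip1 peak.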
